A study of Mus musculus with 8 samples.

Results

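Chloride and anion channel genes were followed as a set of 10 among 21887 protein-coding genes: Cftr, Clcn2, Clcn3, Clcn5, Clcn7, Ano1, Lrrc8a, Lrrc8b, Lrrc8c and Lrrc8d. They were chosen by a list of names with earlier results of these data known, and each was given its gene span in mm10 plus 10 kb on each side as a window. Called peaks of acetylated lysine 27 on histone H3 (H3K27ac), a mark of active promoters and enhancers, were taken where they overlapped a window by at least 1 bp. The peaks in the windows are therefore what the choice rests on, and they are described here with no test.

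The cells were mpkCCD, a mouse line of the cortical collecting duct, grown as 1 clone on permeable supports until confluent. The treated cells received 0.1 nM dDAVP, a vasopressin analogue selective for the V2 receptor, for 24 h, and the others received its vehicle for 24 h. Both treatments had been preceded by 24 h in medium free of serum and hormones, after growth with dexamethasone, insulin, triiodothyronine and epidermal growth factor. There were 2 experiments, each with 1 immunoprecipitated and 1 input library per treatment, so each treatment had 2 peak lists, and whether the experiments used separate cultures was not stated.

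Chloride channels set the anion conductance of an epithelium and the volume and pH of its cells and vesicles. Cftr encodes the chloride channel opened by cyclic AMP and protein kinase A, the pathway that vasopressin drives through its V2 receptor in collecting duct cells. The Clcn family holds plasma membrane channels and exchangers of chloride and protons in endosomes and lysosomes, Ano1 encodes a calcium-activated chloride channel, and the Lrrc8 genes encode the subunits of the volume-regulated anion channel.

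In experiment 1 the peaks numbered 37235 with dDAVP and 39745 with vehicle and covered 99.0 and 104 Mb, and in experiment 2 they numbered 20124 with dDAVP and 29597 with vehicle and covered 33.5 and 56.9 Mb. Peak calling kept 27923780 to 32705755 tags of the immunoprecipitated libraries and 30753752 to 38291361 of the inputs. Since fewer peaks were called with dDAVP in either experiment, and most so in experiment 2, missing peaks are read against the same count over all peaks or all genes. A marker check of the cell type gave a peak in all 4 lists in the windows of 7 of 8 principal cell genes, against 1 of 6 intercalated cell genes, 1 of 4 proximal tubule genes and 1 of 4 genes that mark the thick limb or the distal convoluted tubule. Over all protein-coding genes that share was 57.4%. Elf5 was the principal cell gene without one, and the genes of the other cell types with one were Aqp6, Lrp2 and Slc12a3. The window of Aqp6, an intercalated cell gene, overlaps that of Aqp2. Slc4a1 and Slc26a4 had peaks in the lists of experiment 1 alone. Foxi1, which defines intercalated cells, had no peak in any list, nor had Atp6v1g3 and Atp6v0d2.

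The promoters of 6 members carry the contrast described next, between gene starts with and without an acetylation peak, and are printed from the RefSeq table of GRCm38.p6. Each covers 250 bases before a listed start and 30 bases after it, 5′ to 3′ on the gene's strand. They are Cftr at chr6:18170437-18170716 (plus strand), Ano1 at chr7:144738544-144738823 (minus), Clcn5 at chrX:7319329-7319608 (minus), Clcn3 at chr8:60983282-60983561 (minus), Lrrc8a at chr2:30237519-30237798 (plus) and Lrrc8d at chr5:105699719-105699998 (plus). Cftr and Ano1 had no peak at their listed start in any list, Clcn5 had a peak over this start in the lists of experiment 1 alone, and Clcn3, Lrrc8a and Lrrc8d had one in all 4 lists. Capitals mark the SP1 GC box (GGGCGG), the CCAAT box (CCAAT), and the cyclic AMP response element (CRE, TGACGTCA) with its core (TGACG), on either strand.
Cftr: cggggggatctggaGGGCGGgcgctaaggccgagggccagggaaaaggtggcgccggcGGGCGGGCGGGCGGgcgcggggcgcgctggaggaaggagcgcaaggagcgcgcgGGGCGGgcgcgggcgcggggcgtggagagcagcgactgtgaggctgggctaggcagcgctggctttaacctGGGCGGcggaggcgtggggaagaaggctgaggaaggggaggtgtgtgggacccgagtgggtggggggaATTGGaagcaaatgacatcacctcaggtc
Ano1: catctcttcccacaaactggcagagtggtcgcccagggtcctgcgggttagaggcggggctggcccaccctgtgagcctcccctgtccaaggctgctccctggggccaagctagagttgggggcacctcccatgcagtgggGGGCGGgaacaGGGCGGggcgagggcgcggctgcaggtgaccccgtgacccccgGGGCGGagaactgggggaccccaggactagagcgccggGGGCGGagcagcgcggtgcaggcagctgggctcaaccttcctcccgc
Clcn5: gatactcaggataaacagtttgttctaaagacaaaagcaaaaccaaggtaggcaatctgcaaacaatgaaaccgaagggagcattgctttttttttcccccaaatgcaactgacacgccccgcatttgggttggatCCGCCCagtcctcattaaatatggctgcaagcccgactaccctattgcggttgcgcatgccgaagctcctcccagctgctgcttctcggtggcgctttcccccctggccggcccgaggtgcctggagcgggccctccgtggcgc
Clcn3: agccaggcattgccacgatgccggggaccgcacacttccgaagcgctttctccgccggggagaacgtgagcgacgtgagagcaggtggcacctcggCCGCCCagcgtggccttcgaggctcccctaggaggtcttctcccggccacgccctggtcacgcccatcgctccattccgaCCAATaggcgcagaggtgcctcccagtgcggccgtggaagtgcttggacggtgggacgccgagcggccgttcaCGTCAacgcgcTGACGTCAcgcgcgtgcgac
Lrrc8a: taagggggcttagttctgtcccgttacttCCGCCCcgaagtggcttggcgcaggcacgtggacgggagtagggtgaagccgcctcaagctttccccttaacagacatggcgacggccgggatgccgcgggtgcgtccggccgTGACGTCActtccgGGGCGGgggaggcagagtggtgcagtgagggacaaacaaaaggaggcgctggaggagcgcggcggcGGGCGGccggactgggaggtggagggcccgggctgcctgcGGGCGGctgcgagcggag
Lrrc8d: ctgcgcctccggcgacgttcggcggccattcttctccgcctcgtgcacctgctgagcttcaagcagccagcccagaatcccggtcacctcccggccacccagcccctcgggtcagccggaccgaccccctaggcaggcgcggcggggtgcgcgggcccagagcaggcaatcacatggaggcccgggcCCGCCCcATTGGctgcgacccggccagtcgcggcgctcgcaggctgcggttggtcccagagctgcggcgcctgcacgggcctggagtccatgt

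A peak lay in the window of each of the 10 members in all 4 lists, as it did for 57.4% of all protein-coding genes. A gene start was scored as called where a peak overlapped the 300 bases of its listed promoter, from 250 before to 50 after the start. Of the 10 members, 7 had a listed start called in all 4 lists, where 42.9% of the 17492 protein-coding genes with a listed start did. These were Clcn2, Clcn3, Clcn7, Lrrc8a, Lrrc8b, Lrrc8c and Lrrc8d. The number of members with a called start was 8 in dDAVP replicate 1 and 7 in dDAVP replicate 2, against 8 in vehicle replicate 1 and 8 in vehicle replicate 2. Among all genes with a listed start the shares were 51.8% and 43.1% with dDAVP, against 52.4% and 49.4% with vehicle. Cftr and Ano1 belonged to the 7.95% of genes that had no called start in any list and yet a peak in the window in all 4 lists.

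The strongest start peak belonged to Lrrc8d, a subunit with which the volume-regulated channel passes larger organic osmolytes. The authors' fold enrichment over local background was 8.73 and 9.64 in dDAVP replicates 1 and 2, against 9.67 and 14.5 in vehicle replicates 1 and 2. It was the first of the members in each of the 4 lists, at percentiles of fold between 96.3 and 99.7 within its list. Clcn3, an endosomal exchanger of chloride and protons, came next in 3 lists and just after Clcn2 in dDAVP replicate 2, with fold 8.31 and 5.79 with dDAVP, against 8.37 and 8.46 with vehicle. Clcn2, a plasma membrane channel opened by hyperpolarisation, had fold 6.65 and 5.82 with dDAVP, against 7.58 and 6.83 with vehicle. Folds come from separate calls scaled by each pair of libraries, so they order peaks within a list and were not compared between lists.

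With each gene taken at its strongest start peak, the lowest fold was that of Lrrc8c in both lists of experiment 1 and that of Clcn7 in both lists of experiment 2. Clcn7, the lysosomal exchanger of chloride and protons, had fold 5.70 and 3.91 with dDAVP, against 5.52 and 3.81 with vehicle, and the peak spanned 2775 and 541 bp with dDAVP and 4120 and 809 bp with vehicle. In both treatments the peak at Clcn7 was shorter in experiment 2 than in experiment 1, and in dDAVP replicate 2 it overlapped the promoter by 16 bp. Its other listed start, at chromosome 17 position 25136631, was reached by the peak of vehicle replicate 1 alone.

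**Figure D1:**
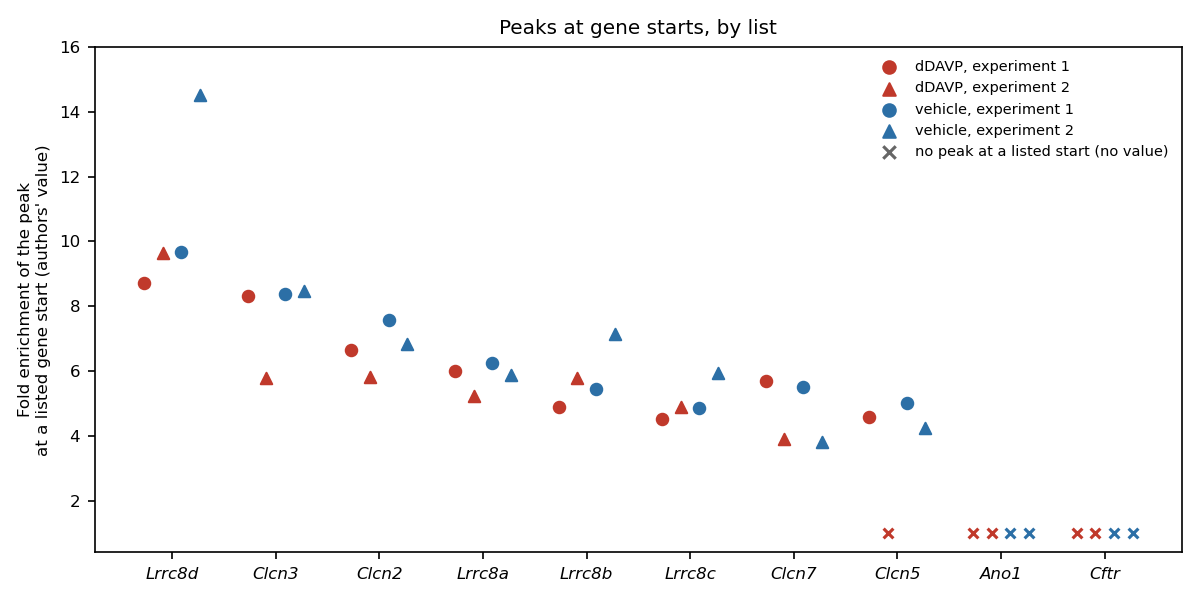
Fold enrichment given by the authors for the peak at a listed gene start (y axis, no unit) for each of the 10 genes (x axis), with dDAVP in red and vehicle in blue, circles for experiment 1 and triangles for experiment 2, and crosses where no peak overlapped a listed start (a cross has no value). Lrrc8d is highest, between 8.73 and 14.5, and Cftr and Ano1 have no called start in any list.

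The CpG content of the promoters did not separate the called from the uncalled members. The Cftr promoter had 71.3% G and C and 31 CpG pairs in 300 bases, the same 2 values as the upstream promoter of Lrrc8d. Promoters called in all 4 lists had medians of 62% G and C and 23 CpG pairs (10340 promoters), against 48.3% and 4 pairs in those called in no list (19077 promoters). Of the 3469 listed promoters with at least 31 CpG pairs, 74.0% were called in all 4 lists and 17.1% in none, and the Cftr promoter was among the 592 called in none. The Ano1 promoter had 71.7% G and C and 18 pairs. This comparison was chosen after the Cftr promoter was seen to be uncalled.

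The letters of the GC box gave a similar description. The GC box occurred in 10 of the 14 listed promoters of the members, including those of Cftr and Ano1, and in 35.7% of all 32851 listed promoters. It was held by 66.4% of promoters called in all 4 lists and by 17.3% of those called in none. The palindromic CRE, the site of the cyclic AMP-responsive factor CREB, occurred in 2 promoters, those of Lrrc8a and the upstream start of Clcn3, against 1.79% of all listed promoters, 3.68% of those called in all 4 lists and 0.870% of those called in none. The core, which the palindrome contains, occurred in 6 promoters, those of Clcn2, Clcn3, Clcn7, Lrrc8a, Lrrc8b and Lrrc8c, against 20.8% of all, 34.8% of those called in all 4 lists and 13.6% of those called in none. All 6 were promoters called in all 4 lists. The share of all promoters holding the core that were called in all 4 lists was not computed, so nothing is read from this count. Those of the 2 listed starts of Lrrc8d and of the downstream start of Clcn3 were also called in all 4 lists and lacked the core. A link between the core and a called start was not tested. These letters were not found in the printed window of Cftr. The CCAAT box was held by 5 member promoters, Cftr among them, against 37.4% of all. The AP-1 site (TGANTCA) and the TATA box (TATAAA) occurred in 1 member promoter each, those of Lrrc8b and of the downstream start of Clcn5, against 7.81% and 13.6% of all. The E-box (CACGTG) occurred in those of Clcn7 and Lrrc8a, against 7.15% of all. A match describes letters and shows no binding.

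Across the 10 windows the 4 lists merged into 60 regions, of which 25 were called in all 4 lists. A region is named vehicle-only here when both vehicle lists held it and both dDAVP lists lacked it, and dDAVP-only in the mirror case. There were 0 dDAVP-only regions and 3 vehicle-only regions among the 60. Leaving out 1 list changed these counts, to 7 vehicle-only without dDAVP replicate 1, to 6 without vehicle replicate 1 and to 11 without vehicle replicate 2, and to 7 dDAVP-only without dDAVP replicate 2. The share of all genes with such a region rose as well. For vehicle-only regions it went from 3.31% to 20.0%, 7.28% and 21.3% in the same order. For dDAVP-only regions it went from 0.0777% to 17.5%. Of the 45705 regions of the whole series, 29 fell in the dDAVP-only class, 1149 in the vehicle-only class and 16537 in that shared by the 4 lists. Of the 60 member regions, 25 were called in both dDAVP lists and 33 in both vehicle lists, and 18 were called in 1 list. Of the 45705 regions, those called in 1 list alone numbered 5434 and 59 for dDAVP replicates 1 and 2. For vehicle replicates 1 and 2 they numbered 7026 and 1736. Over the series, both dDAVP lists held 16537 regions called in all 4 lists and 29 with no vehicle call. They shared 180 more with vehicle replicate 1 and 37 more with vehicle replicate 2. Both vehicle lists held the same 16537 and 1149 with no dDAVP call. They shared 5769 more with dDAVP replicate 1 and 143 more with dDAVP replicate 2. More regions thus lay in both vehicle lists over the series as well, and nothing is read from the 25 and the 33. All 10 regions that held a listed start were called in all 4 lists, where a peak anywhere in the merged region counts. The same share over all regions of the series that hold a listed start was not computed, so nothing is read from this count. For Clcn5 the merged region was called in dDAVP replicate 2 and vehicle replicate 2 by peaks that lay beside the start.

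Peaks seen with 1 treatment only were then counted within each experiment, as peaks with no overlapping peak in the list of the other treatment. In experiment 1, 8 of the 47 member peaks of dDAVP replicate 1 had no vehicle partner, against 11 of the 49 member peaks of vehicle replicate 1 with no dDAVP partner. The same shares over all peaks were 15.5% for dDAVP replicate 1 and 21.1% for vehicle replicate 1, so the members' 17.0% and 22.4% lay near the background. In experiment 2, 0 of 26 member peaks of dDAVP replicate 2 had no vehicle partner, against 14 of 40 member peaks of vehicle replicate 2. Over all peaks the shares were 2.3% and 37.1%, and the members' 35% with vehicle again lay near the background. When the lists were cut to equal covered bases, an alternative chosen after seeing the data, the counts of experiment 2 were 15 of 26 with dDAVP and 0 of 11 with vehicle, beside 38.7% and 0.696% over all peaks. The direction in experiment 2 thus turned at that setting for the members as for all peaks, and with lists of equal length both counts were 2 of 26.

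These peaks were weak and short beside all member peaks of their lists. Their median percentile of fold was 24.7 in dDAVP replicate 1, against 15.04 in vehicle replicate 1 and 21.9 in vehicle replicate 2, and the medians over all member peaks were 47.5, 57.9 and 49.2 in the same order of lists. The highest percentiles among them were 47.5 with dDAVP replicate 1, 63.1 with vehicle replicate 1 and 57.3 with vehicle replicate 2, and both vehicle values were those of a single region inside Cftr. Median lengths were 921 bp in dDAVP replicate 1, against 634 bp in vehicle replicate 1 and 868 bp in vehicle replicate 2. Over all member peaks they were 1549, 1911 and 1300 bp in the same order of lists. The medians over the whole lists for peaks seen with 1 treatment only are not given here. Members with at least 1 such peak numbered 7 for dDAVP and 5 for vehicle in experiment 1, where 17.9% and 21.6% of all genes had one. In experiment 2 they numbered 0 for dDAVP and 7 for vehicle, where 1.46% and 25.1% of all genes had one. Several members are long genes, and a longer window can hold more peaks.

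A peak seen only with vehicle in both experiments was found for 3 of the 10 members, Cftr, Clcn5 and Lrrc8d, and for 11.1% of all genes. No member had a peak seen only with dDAVP in both experiments, which 0.768% of all genes had. In Cftr and Clcn5 the vehicle peaks of the 2 experiments met in the same region, while the Lrrc8d ones lay at different places.

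Cftr, the channel opened by cyclic AMP, was marked inside the gene and not at its start. More of its regions were called with vehicle than with dDAVP in the lists as deposited. With lengths made equal inside an experiment, 3009 and 1050 bp were covered with dDAVP, against 6676 and 1321 bp with vehicle, in experiments 1 and 2. The gene spans 152 kb on chromosome 6 (18170687 to 18322770, plus strand). Cftr had 3 peaks in dDAVP replicate 1 and 1 in dDAVP replicate 2, against 5 in vehicle replicate 1 and 4 in vehicle replicate 2. All of them lay in the gene body, and exons and introns were not resolved here. The promoter printed above lay outside every peak, and the nearest peaks to the start were 49747 bp away in dDAVP replicate 1 and 149455 bp in dDAVP replicate 2, against 70619 bp in vehicle replicate 1 and 20270 bp in vehicle replicate 2, where that peak lay upstream of the gene and outside the window.

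The 6 Cftr regions lay between 49.7 kb from the start and the 3′ end. A region 149 to 152 kb from the start, at the 3′ end of the gene, was called in all 4 lists, with peaks of 1549 and 1050 bp with dDAVP and 2507 and 952 bp with vehicle in experiments 1 and 2. Its peak in dDAVP replicate 2, the only Cftr peak of that list, was weak, with a -log10 q of 1.45 and a percentile of fold of 5.11. A region at 100 kb (18270829 to 18272149) was vehicle-only. Its fold was 3.80 and 3.95 in vehicle replicates 1 and 2, with -log10 q of 5.91 and 6.28, well above the limit of 1 that a q of 0.1 sets. The nearest peak of dDAVP replicate 1 was 28839 bp from that region and that of dDAVP replicate 2 was 47993 bp from it. The other vehicle-only region of Cftr, at 83.2 kb (18253849 to 18255379), had weaker vehicle peaks, with fold 2.34 and 2.97 and -log10 q of 1.35 and 2.55.

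Another Cftr region, 70.6 to 72.5 kb from the start (18241306 to 18243201), was shared in part. It held 255 bp of peak in dDAVP replicate 1 and none in dDAVP replicate 2, against 1896 and 1085 bp in vehicle replicates 1 and 2. Peaks called in 1 list lay at 49.7 kb (1205 bp, dDAVP replicate 1) and at 144 kb (324 bp, vehicle replicate 1). Of all genes, 0.302% had 2 or more vehicle-only regions, as did 1.93% of the 2429 genes of at least 100 kb. Cftr was known to hold a vehicle-only region when the members were chosen, so nothing is read from these shares.

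**Figure D2:**
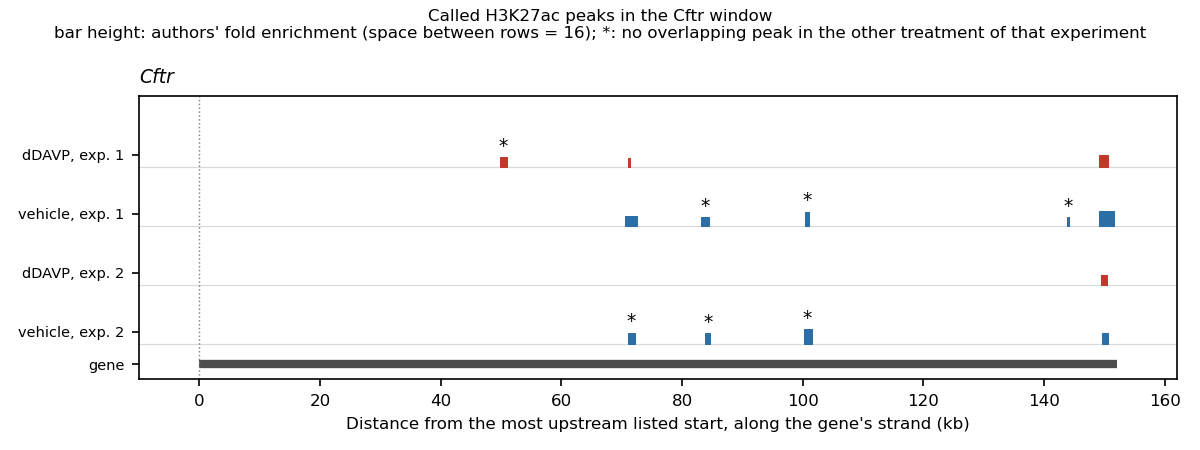
Called H3K27ac peaks in the Cftr window by distance from the gene start (x axis, kb), in 4 rows from dDAVP and vehicle of experiment 1 to dDAVP and vehicle of experiment 2. Bar height is the authors' fold enrichment, and a star marks a peak with no overlapping peak in the other treatment of that experiment. The vehicle rows both have starred peaks near 83.2 and 100 kb, and no row has a peak at the start.

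Clcn5 encodes an endosomal exchanger of chloride and protons whose loss in the human proximal tubule causes Dent disease. The gene spans 166 kb on chromosome X (7153810 to 7319358, minus strand) and had 4 and 3 peaks with dDAVP, against 6 and 4 with vehicle, in experiments 1 and 2. At its upstream start, printed above, peaks of fold 4.59 (dDAVP) and 5.01 (vehicle) covered the promoter in experiment 1. In experiment 2 the peaks lay inside the gene and ended 246 bp from the start with dDAVP and 158 bp from it with vehicle. At the downstream start (position 7188714) the peak of dDAVP replicate 2 ended 17 bp short of the promoter window, while the other 3 lists reached it. That miss is why Clcn5 is not counted among the starts called in all 4 lists.

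Inside Clcn5 a region about 56 to 61 kb from the start was called in all 4 lists and differed in length. It held 2740 and 341 bp of peak with dDAVP, against 4920 and 3101 bp with vehicle. The vehicle-only region of Clcn5, at 29.4 to 30.4 kb (7288927 to 7289943), was weak, with fold 2.38 and 2.56 and -log10 q of 1.43 and 1.39 in vehicle replicates 1 and 2. The peaks of the 2 vehicle lists, 663 and 483 bp long, overlapped each other only in part. Vehicle-only regions lay in the windows of 2 of the 10 members, Cftr and Clcn5, where 3.31% of all genes and 10.6% of genes of at least 100 kb had one. A dDAVP-only region was found for 0 members, 0.0777% of all genes and 0.453% of genes of at least 100 kb.

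Ano1, the calcium-activated channel, spans 163 kb on chromosome 7 (144588549 to 144752026, minus strand). Its listed start lies 13453 bp inside the outer end of the gene in the RefSeq table. No list had a peak at the listed start, and the nearest peaks were 4847 and 8285 bp upstream of it with dDAVP, against 6160 and 7707 bp with vehicle. The acetylated stretch lay farther upstream, towards that outer end and at the lncRNA gene D930030F02Rik. It was covered by peaks of 3294 and 1382 bp in dDAVP replicate 1 and of 2131 bp in dDAVP replicate 2, against 1 peak of 8584 bp in vehicle replicate 1 and peaks of 3046 and 1630 bp in vehicle replicate 2. The outer end itself lay under a peak in 3 lists, and dDAVP replicate 2 was the exception. The strongest peak of the Ano1 window, with fold 5.11 and 5.13 with dDAVP and 6.48 and 5.71 with vehicle, lay at the neighbouring gene Fadd, an adaptor of death receptors, and cannot be given to Ano1.

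**Figure D3:**
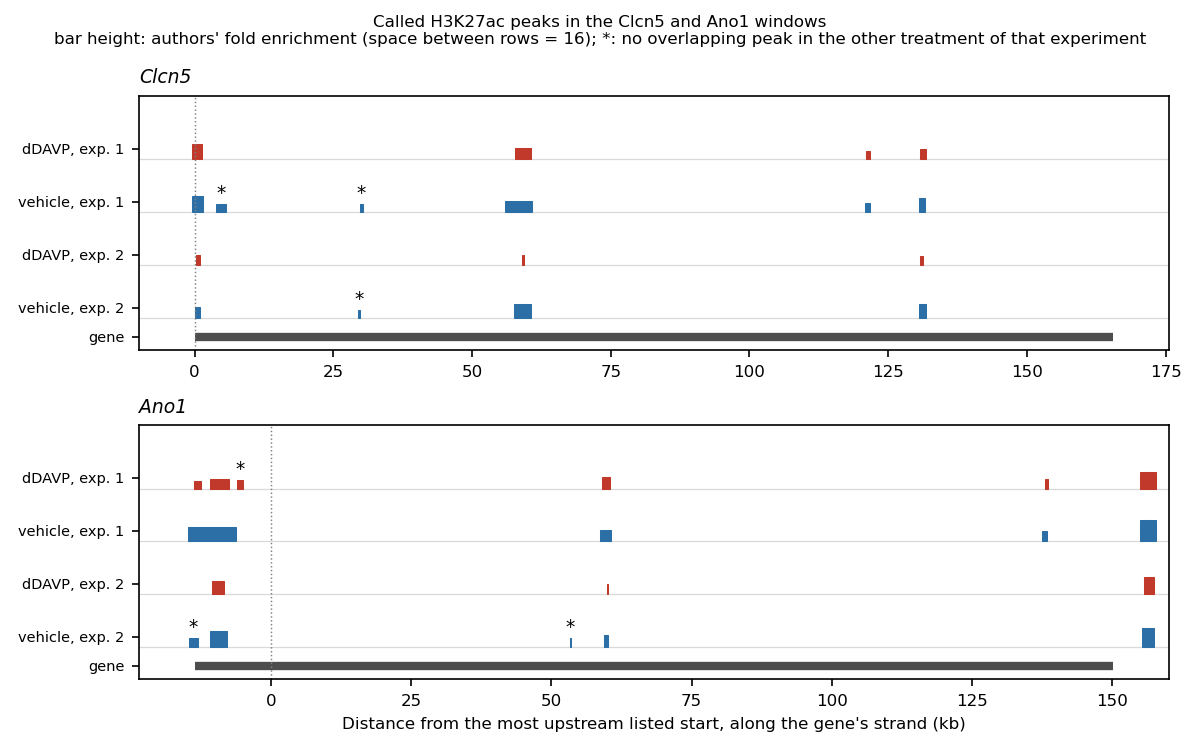
Called H3K27ac peaks in the Clcn5 and Ano1 windows by distance from the most upstream listed start (x axis, kb), in 4 rows from dDAVP and vehicle of experiment 1 to dDAVP and vehicle of experiment 2, with bar height for the authors' fold and stars as in the map of Cftr. Clcn5 has a starred peak near 30 kb in both vehicle rows, and the peaks near the Ano1 start lie upstream of it.

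Clcn2, Clcn3 and Clcn7 were marked at their starts in all 4 lists. The Clcn2 start peak spanned 4163 and 2718 bp with dDAVP, against 4060 and 3138 bp with vehicle, and also covered the start of Polr2h, a subunit gene of the RNA polymerases, which lies next to it. Clcn3 had its 2 listed starts, at positions 60983311 and 60954799, in separate regions that were both called in all 4 lists. At the downstream start of Clcn3 the fold was 4.58 and 3.59 with dDAVP, against 4.27 and 4.74 with vehicle. A further region of the Clcn3 window lay at the start of the neighbouring kinase gene Nek1. Both regions of the Clcn7 window were called in all 4 lists, and the second lay over the neighbouring gene Ccdc154, beyond the end of Clcn7.

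The Lrrc8 genes encode 1 obligatory subunit, Lrrc8a, and partners that set what the volume-regulated channel conducts. Lrrc8b, Lrrc8c and Lrrc8d lie next to each other on chromosome 5, between 105415206 and 105815215, and Lrrc8a lies on chromosome 2 (30237769 to 30263790). Lrrc8a had 5 peaks in dDAVP replicate 1 and 3 in dDAVP replicate 2, against 5 in each vehicle list. Its start peak had fold 6.01 and 5.24 with dDAVP, against 6.24 and 5.88 with vehicle. In the Lrrc8a body a region 11.2 to 17.0 kb from the start held 5029 and 1444 bp of peak with dDAVP, against 5780 and 1830 bp with vehicle. The 2 Lrrc8a peaks of vehicle replicate 2 that had no dDAVP partner, at 4.37 kb and beside the neighbouring gene Phyhd1, had partners of both treatments in experiment 1.

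Lrrc8b and Lrrc8c were marked at their starts, and their windows held 3 and 5 regions. The start region of Lrrc8b lay within 1 kb of ends of the lncRNA genes 4930542N06Rik and Gm32051. Another region of its window called in all 4 lists lay 79.2 to 80.3 kb from the start, beyond the gene and at the lncRNA gene Gm42141. The Lrrc8b start had fold 4.88 and 5.79 with dDAVP, against 5.44 and 7.13 with vehicle, and its peaks spanned 2535 and 625 bp with dDAVP and 2125 and 1695 bp with vehicle. The 625 bp peak of dDAVP replicate 2 ended 100 bp upstream of the start. A region in the Lrrc8b body, 37.9 to 39.1 kb from the start, was called in dDAVP replicate 1 and not vehicle replicate 1, and in vehicle replicate 2 and not dDAVP replicate 2. It thus fell on opposite sides in the 2 experiments, and 233 of the 45705 regions of the series were called in those 2 lists alone. The Lrrc8c start had fold 4.52 and 4.88 with dDAVP, against 4.87 and 5.93 with vehicle, and was the 1 region of the Lrrc8c window called in all 4 lists.

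Lrrc8d carried more acetylated sequence than the other 9 members. Its window of 135 kb held 13 and 7 peaks with dDAVP, against 16 and 10 with vehicle, covering 50488 and 18680 bp with dDAVP and 50973 and 24742 bp with vehicle. Those are 37.3% and 13.8% of the window with dDAVP, against 37.7% and 18.3% with vehicle. The start region spanned 9514 and 7576 bp in the dDAVP lists, against 8934 and 7058 bp in the vehicle lists, and was longer with dDAVP in both experiments. It also covered Gm42166, a gene that overlaps the Lrrc8d start. A second stretch, 85.7 to 96.9 kb from the start near the 3′ end, had fold 5.16 and 6.34 with dDAVP, against 5.79 and 6.65 with vehicle, and was called in all 4 lists. The peaks of Lrrc8d seen with 1 treatment only numbered 2 and 0 with dDAVP, against 4 and 3 with vehicle.

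The window limit ran through peaks at Clcn3 and Lrrc8d. Of the peaks it ran through, the one with the fewest bases inside was that of vehicle replicate 2 at the upstream edge of Lrrc8d, with 903 of 932 bp inside. The nearest peak left outside a window lay 161 bp beyond the other edge of Lrrc8d, in dDAVP replicate 1. The weakest peak counted had a -log10 q of 1.06, at Lrrc8d in dDAVP replicate 1.

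**Figure D4:**
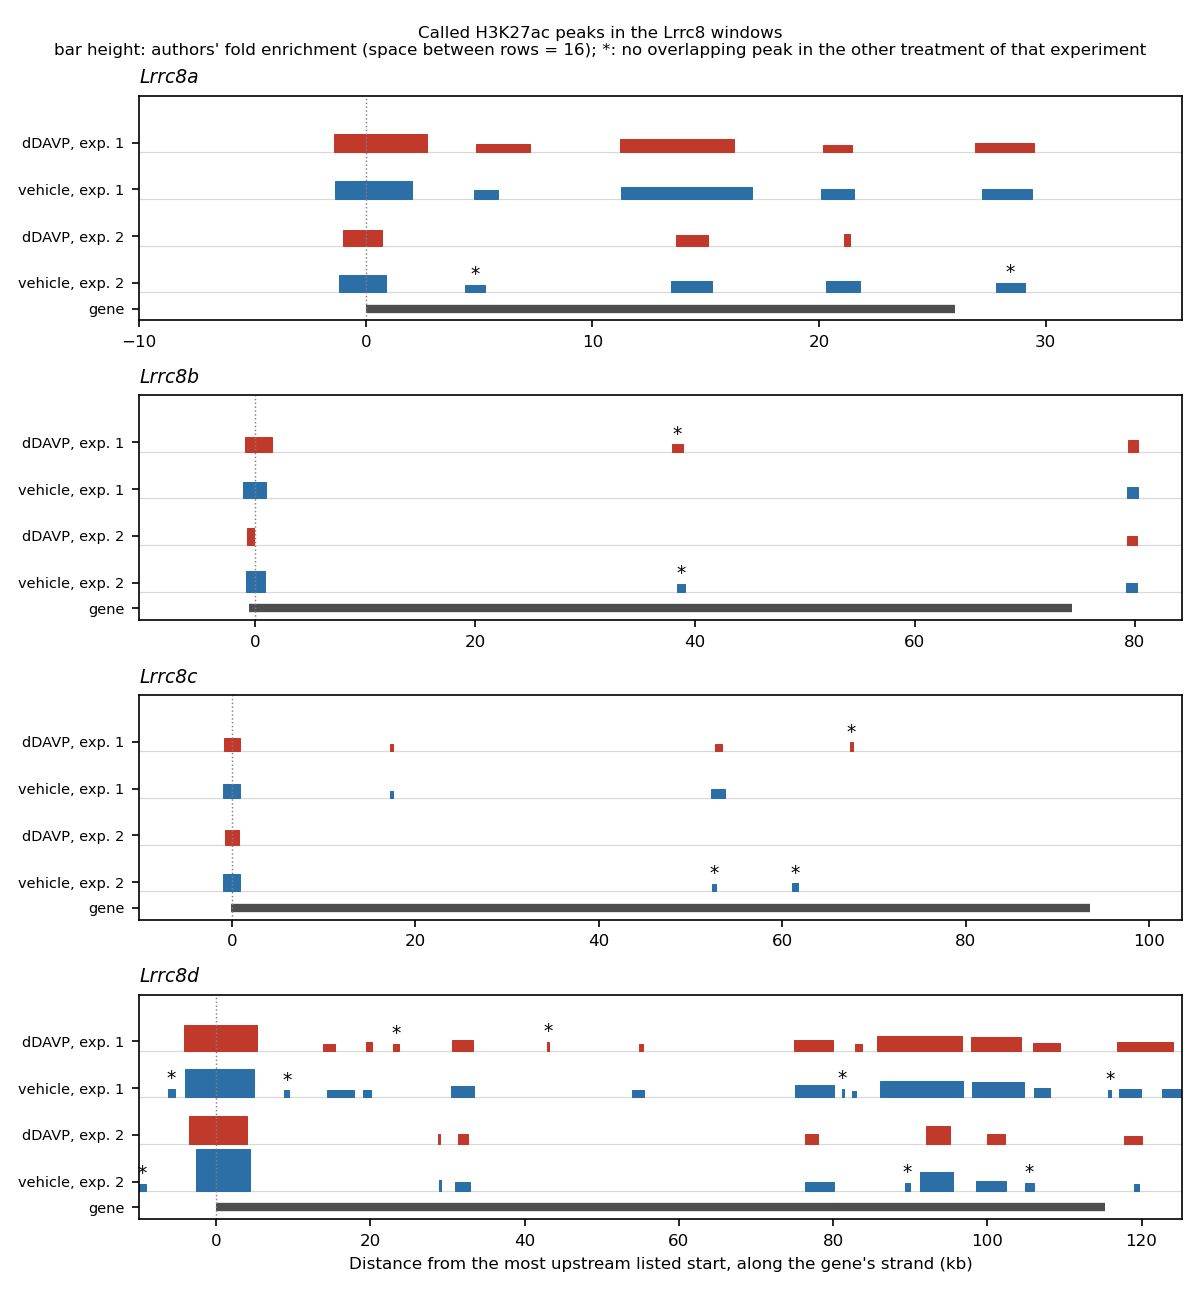
Called H3K27ac peaks in the windows of the 4 Lrrc8 genes by distance from the most upstream listed start (x axis, kb), in 4 rows from dDAVP and vehicle of experiment 1 to dDAVP and vehicle of experiment 2, with bar height for the authors' fold and stars as in the map of Cftr. All 4 genes have a peak at the start, or ending 100 bp from it for Lrrc8b in dDAVP of experiment 2, in every row, and Lrrc8d has the most peaks along the gene body.

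Covered length summed up these differences per gene. Within experiment 1 the dDAVP list covered fewer bases than the vehicle list in 7 of 10 member windows, and within experiment 2 in 10 of 10. Among the 12558 protein-coding genes covered in all 4 lists, 53.3% and 95.2% had fewer bases with dDAVP in those experiments, and 51.4% had fewer in both, against 7 of the 10 members. Clcn2, Lrrc8a and Lrrc8b had more bases with dDAVP in experiment 1 and fewer in experiment 2. No member had more with dDAVP in both experiments, which 2.84% of these genes did.

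The ratio of covered bases, dDAVP over vehicle, had a median over the members of 0.855 in experiment 1 and 0.511 in experiment 2, where the medians over the 12558 genes were 0.987 and 0.714. The 10 windows together covered 116977 and 40631 bp with dDAVP (78804 ± 53985, SD, n = 2), against 130617 and 68175 bp with vehicle (99396 ± 44153, SD, n = 2). The SDs mix the 2 experiments, and that spread was larger than the difference between the treatments. Within each experiment, where the treatments are paired, the dDAVP total was the smaller. The ratios of these totals were 0.896 and 0.596 in experiments 1 and 2, beside 0.951 and 0.590 for the whole lists. An exact permutation test was not made, because the windows were chosen on these peaks and 2 lists against 2 are too few for it to pass.

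With the lists as deposited and the 10 kb flank, Cftr and Clcn5 had the smallest ratios of the members in both experiments. Cftr covered 3009 and 1050 bp with dDAVP (2030 ± 1385, SD, n = 2), against 6676 and 4184 bp with vehicle (5430 ± 1762, SD, n = 2), so both vehicle values exceeded both dDAVP values. The Cftr ratios were 0.451 and 0.251, and 0.780% and 3.57% of the 12558 genes had a smaller ratio in experiments 1 and 2. Clcn5 covered 6396 and 1607 bp with dDAVP (4002 ± 3386, SD, n = 2), against 11468 and 5721 bp with vehicle (8595 ± 4064, SD, n = 2). For Clcn5 the groups overlapped across the experiments, while the ratios within experiments 1 and 2 were 0.558 and 0.281. Ratios under 0.6 in both experiments, a limit set after the values were seen, were found for 2% of the 12558 genes. The members were chosen with results of these data known, so nothing is read from these shares. When every list was shortened to the length of the shortest, the Cftr ratios were 0.493 and 0.795 and those of Clcn5 0.691 and 0.307. The order of the members changed at that setting. In experiment 1 Clcn7 was lowest at 0.295, and in experiment 2 Cftr lay above Clcn7 (0.506), Lrrc8a (0.510), Lrrc8b (0.596) and Ano1 (0.683). The value of 0.295 sets 2775 bp with dDAVP, those of the Clcn7 start peak, against 9414 bp with vehicle. The vehicle bases include the region over the neighbouring gene Ccdc154.

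Ano1 had ratios of 0.740 and 0.516, Clcn7 of 0.823 and 0.506, and Lrrc8c of 0.838 and 0.523. Clcn3 had 0.872 and 0.811, and Clcn2 had 1.07 and 0.866, the ratio nearest to 1 among the members in experiment 2. Lrrc8a had 1.11 in experiment 1 and 0.449 in experiment 2. Lrrc8d, with the most covered bases, had ratios of 0.990 and 0.755, beside medians of all genes of 0.987 and 0.714. Lrrc8b was the member with the largest ratio in experiment 1, 1.45, and had 0.474 in experiment 2. Its covered bases were 4489 and 1590 with dDAVP, against 3089 and 3352 with vehicle. All these ratios are of whole windows and count peaks at neighbouring genes, such as Ccdc154 and Fadd. With no flank the ratios of Clcn7 were 0.632 and 0.815, those of Ano1 0.752 and 0.519 and those of Lrrc8b 2.02 and 0.222. Lrrc8b then lay below Cftr (0.251) in experiment 2.

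**Figure D5:**
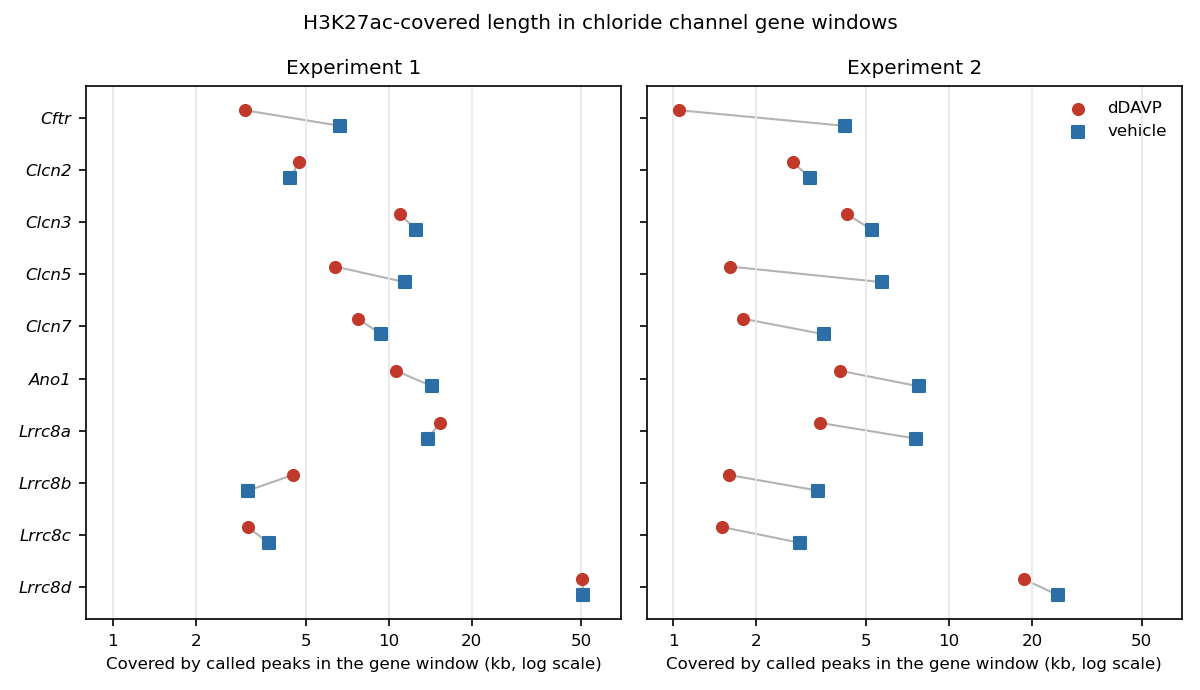
Length covered by called peaks in each gene window (x axis, kb, log scale) for the 10 genes (rows), in experiment 1 (left) and experiment 2 (right), with dDAVP as red circles above vehicle as blue squares. Cftr and Clcn5 have the widest gaps between the treatments in both panels, and 10 of 10 genes have less with dDAVP in experiment 2.

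Other genes of chloride transport were taken as a wider list of 57, in 3 groups of 29 channels and barttin, 14 cotransporters and exchangers, and 14 regulators. A peak in all 4 lists was found for 19 channel genes, 8 cotransporter and exchanger genes and 9 regulator genes. Together these were 36 of the 57, where 57.4% of all protein-coding genes had one. No peak in any list was found for 9 of the 57, where 32.8% of all genes had none. These were Clcn1, the channel of skeletal muscle, Ano2, Ano3, Ano4, Ano5, Slc12a1, the cotransporter of the thick limb, Slc26a3, Slc26a7 and Wnk3. The median ratios of covered bases over the 36 listed genes covered in all 4 lists were 0.976 and 0.594 in experiments 1 and 2, beside 0.987 and 0.714 over all covered genes. Of the 36, 20 had less with dDAVP in both experiments, near the 51.4% of all covered genes, and 0 had more in both, beside 2.84%.

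A peak seen only with vehicle in both experiments was found for 13 of the 57 genes, beside 11.1% of all genes, and one seen only with dDAVP in both for 2, beside 0.768%. The 2, Slc12a7, a potassium and chloride cotransporter gene, and Nedd4l, a ubiquitin ligase gene, were also among the 13. The 13 also included Bsnd, Ano6, Best3, Clic5, Slc12a4, Slc26a9, Ezr and Stx1a. Vehicle-only regions lay in the windows of 4 of the 57, Best3, Slc26a9 and Nedd4l among them, beside 3.31% of all genes. At Slc26a9, which encodes an epithelial chloride channel and transporter, 1055 and 0 bp were covered with dDAVP, against 2476 and 4525 bp with vehicle. Its vehicle-only region, on chromosome 1 (131733005 to 131735967), had fold 2.38 and 2.84 in vehicle replicates 1 and 2.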

How the data were processed

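Members and gene lists were chosen with earlier results of these data known. The submitters' processing notes name BWA, SAMtools and the mm10 build. Per the file headers, broad peak calling with MACS 2.1.1.20160309 was run on each immunoprecipitated library against the input of its treatment and experiment, at q limits of 0.01 for strong and 0.1 for broad regions, with tags of 50 bp and at most 1 tag per position. Replicates were not pooled. The deposited lists give, per peak, the authors' pileup signal, their fold enrichment ratio over local background and, in columns whose names were lost, values that fit -log10 p and -log10 q. The pileup was not used. Each list is deposited with an input sample, and its header gives the immunoprecipitated library it was called on.

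Computed here (Python 3.11.15, numpy 2.4.6, pandas 2.3.3) were peak overlaps with windows of gene span plus 10 kb, merged regions of the 4 lists on assembled chromosomes, covered bases, and percentiles of fold within a list. Overlap was at least 1 bp. Interval arithmetic was tested on simulated data. Gene spans and starts came from RefSeq tables of GRCm38.p6, the build of mm10, and a start was listed for 10 of 10 members. Named genes are the 10 members, and of the wider list those with a peak seen with the same treatment only in both experiments or with no peak; some of these are not reported here. Alternatives were a -log10 q of at least 5, lists of equal length, no flank or 25 kb, a 50% overlap, gene ends of 1 kb, leaving out each list, and, added after seeing the data, equal covered bases.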

Additional observations from a re-analysis of the deposited data

How the results depend on the processing

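No paired analysis was possible because the results come from no test, so there was no fit to block; the counts and ratios within an experiment are paired values. The counts of peaks seen with 1 treatment only moved with the setting, and the share over all peaks is given in brackets. At a -log10 q of at least 5 experiment 1 gave 0 of 17 for dDAVP (2.76%) and 6 of 23 for vehicle (17.0%), and experiment 2 gave 6 of 18 for vehicle (28.1%). Members with a peak in all 4 lists were then 8, beside 46.8% of all genes, and Cftr and Clcn5 had 0 bp in dDAVP replicate 2. The 3 vehicle-only regions, a class that 2.61% of all genes had, lay in the windows of Cftr, Clcn5 and Clcn7. Those of Clcn5 and Clcn7 lay in regions called in all 4 lists when no such limit was set. With all lists cut to 1 length, experiment 1 gave 2 of 24 for dDAVP (9.83%) and 5 of 27 for vehicle (10.3%), experiment 2 gave 2 of 26 for dDAVP (9.26%) and 2 of 26 for vehicle (14.5%), and there was 1 dDAVP-only region, at Lrrc8d. Of all genes, 0.704% had a dDAVP-only region at that setting. The vehicle-only regions were then 2, in the windows of Cftr and Lrrc8a, and 1.27% of all genes had one. With lengths made equal inside an experiment, experiment 2 again gave 2 and 2, and 1 vehicle-only region was left, which 0.886% of all genes had. With a 50% overlap, 1 of 26 peaks of dDAVP replicate 2 had no vehicle partner (4.07%). At equal covered bases, an alternative chosen after seeing the data, experiment 1 gave 1 of 5 for dDAVP (11.7%) and 2 of 6 for vehicle (9.52%), and experiment 2 gave 15 of 26 for dDAVP (38.7%) and 0 of 11 for vehicle (0.696%). Members with a peak in all 4 lists were then 4, beside 36.7% of all genes. Members with a start called in all 4 lists were 4, beside 28.2% of genes with a listed start. There were 1 dDAVP-only region and 0 vehicle-only regions, which 0.758% and 0% of all genes had. Members with fewer bases with dDAVP in both experiments were 2, beside 15.3% of all genes.

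Leaving out 1 list at a time gave 3 to 11 vehicle-only regions, the highest without vehicle replicate 2, with 7 without dDAVP replicate 1 and 6 without vehicle replicate 1. It gave 0 to 7 dDAVP-only regions, with 7 without dDAVP replicate 2. Over all genes, the share with a vehicle-only region was 3.64% to 21.3% and that with a dDAVP-only region 0.192% to 17.5%. Members with a peak in every remaining list stayed at 10, starts called were 7 to 8, and members with fewer bases with dDAVP 7 to 10. The shares over all genes were 57.4% to 62.1%, 42.9% to 48.5% and 36.3% to 60.5% in the same order. The Cftr region at 100 kb was the 1 vehicle-only region that stayed so at a -log10 q of at least 5 and with lengths made equal in either way. With a 50% overlap it was called in vehicle replicate 2 alone, and at equal covered bases in no list. Calls depend on depth and on the input, so a missing peak says that none was called, not that the mark was absent.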
